A study of Mus musculus with 2 samples.

Results

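The contractile machinery of heart and skeletal muscle was examined in cultured mouse ureters that lacked 2 fibroblast growth factor receptors. A set of 44 genes was described: 13 cardiac members, 23 skeletal members and 8 members used in both tissues. Members were found by matching the gene name of each gene spot, and all 44 were on the array, with 61 probes and 244 spots, among 30011 gene names in all. Ureters were dissected from embryos of stage E15.5 and kept on membranes for 6 days. Mutants, named Fgfr1/2cDKO, carried Tbx18(cre/+) together with Fgfr1(fl/fl) and with Fgfr2(fl/fl). Controls carried Fgfr1(fl/?) and Fgfr2(fl/?), and all were of the NMRI strain. Every genotype thus carries floxed alleles of both receptors, and Cre is driven from the Tbx18 locus, which is active in the mesenchyme around the ureteric epithelium. No Cre is listed for controls, so receptor loss and Cre at the Tbx18 locus cannot be told apart. Total RNA of mutant and control was hybridised together on 2 two-colour Agilent arrays, with males on array 1 (mutant in Cy5) and females on array 2 (mutant in Cy3), from 150 ng of RNA per labelling. Sex, dye orientation and replicate cannot be told apart, and the labels do not say whether the RNA samples came from separate embryos or litters, so the p-values rest on the spread of these RNA samples alone, and that spread may be technical. Fewer cells of a type and less RNA per cell cannot be told apart in such bulk RNA.

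Striated muscle is built from sarcomeres, in which myosin thick filaments pull on actin thin filaments. Calcium released from the sarcoplasmic reticulum binds the troponin complex on the thin filament and so starts contraction, while titin, nebulin and the proteins of the M band and Z disc hold the lattice together. Heart and skeletal muscle use different copies of most of these proteins. The ureter wall, in contrast, holds smooth muscle, which has no sarcomeres, although several striated muscle genes are also active in smooth muscle, in vessels or in developing mesenchyme.

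Ratios below are log2 values of mutant over control, with the SD between the 2 arrays. Signals are normalised log2 intensities in arbitrary units, which compare samples for a probe and not probes with each other. A gene passed where the adjusted p of limma's moderated test over 22070 genes was below 0.05. Fgfr1 had ratios of -0.22 and -0.44 on arrays 1 and 2 (adjusted p = 0.134) and Fgfr2 of 0.57 and 0.54 (adjusted p = 0.0309, higher in mutants). Whether these probes lie in the deleted parts was not examined, so they do not check the labels. Of the gene spots, 74.5% to 78.3% were well above background in control and 70.3% to 73.3% in mutant channels. Ratios of the 2 arrays correlated at r = 0.52 across genes, which are not independent replicates.

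Expression of striated muscle genes was partly lower in mutant ureters, and 5 members fell: the cardiac myosin heavy chain Myh6, the muscle caveolin Cav3, the muscle creatine kinase Ckm, the fast troponin C Tnnc2 and the skeletal calsequestrin Casq1. They were 1.65-fold to 4.50-fold lower. No member passed in the other direction. At an unadjusted p below 0.05, 10 members were lower, the 5 included, and 2 were higher without passing. Of all 22070 genes tested, 2511 were lower and 2444 higher at that cut. Counts at that cut below stand beside these. At an adjusted threshold of 0.1, 7 members were called lower and 1 higher (Tnni2), beside 947 and 960 of all genes tested. In all, 34 members were bright enough to be tested. The 5 of 34 that passed stand beside 2.03% of all genes tested that passed as lower, 1.76% that passed as higher and 3.79% in either direction. The median ratio of the 34 was -0.19, with -0.18 on array 1 and -0.10 on array 2, beside -0.02 for all genes tested. The 29 other tested members did not pass, and 21 of the 34 had a mean ratio between -0.25 and 0.25. Ratios lay below 0 on both arrays for 24 of the 34 (70.6%), beside 36.0% of all genes tested, above 0 on both for Tnni2, Neb and Ttn, and had opposite signs for the remaining 7. All 34 were well above background in control RNA on both arrays, and 32 in all 4 channels, so few members entered through 1 genotype alone.

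**Figure D1:**
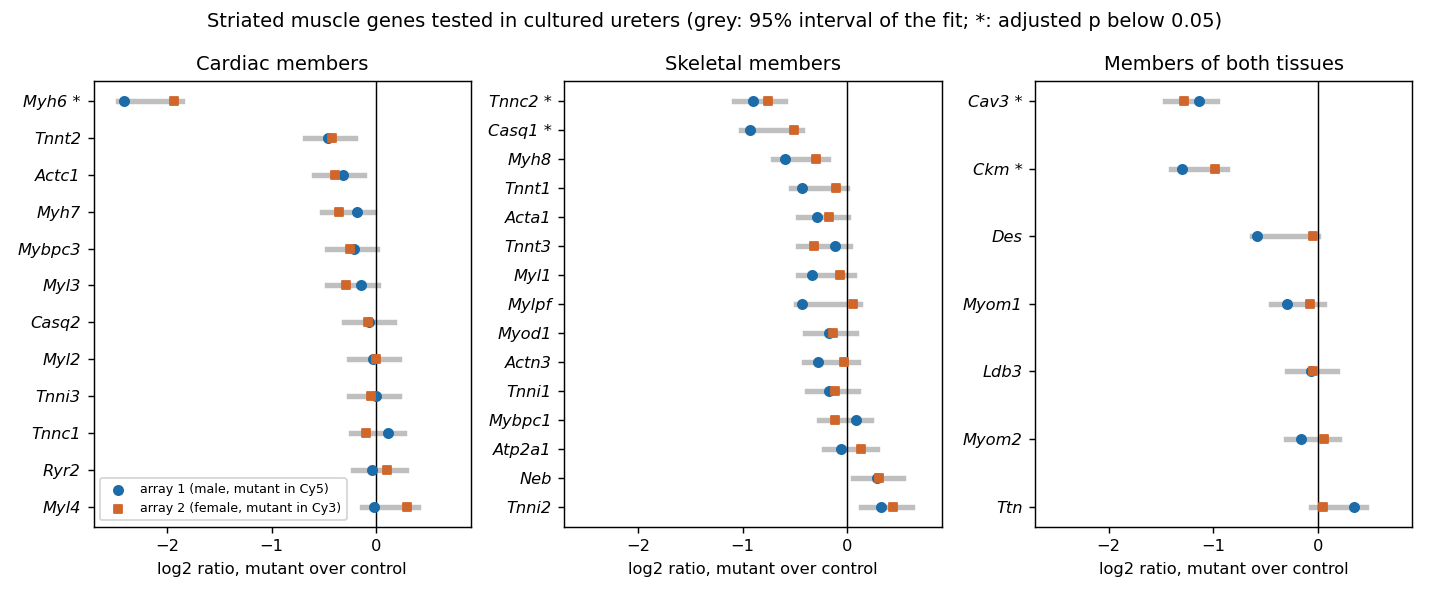
Log2 ratio of mutant over control (horizontal axis) for the 34 tested members in 3 panels by tissue, with circles for array 1, squares for array 2, grey bars for the 95% interval of the fit and stars for members that passed. Myh6 lies apart from the others at -2.41 and -1.93, and most remaining members lie within 0.5 of 0.

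The oligonucleotides of the members that fell are given because each result rests on 1 probe. Each line gives the first 30 bases of the 60-base probe, 5' to 3', and the mm9 position from the file. The second Myh6 probe is shown beside the first because the readings of the pair differ.
Myh6 (tested), chr14:55560774-55560833, minus strand: gcacgacgaggaataacctctccagcagac
Myh6 (not tested), chr14:55584132-55584191, minus strand: agtgcttcgtgcctgatgacaaggaggagt
Cav3, chr6:112422739-112422798, plus strand: aggctttgcgttcacatgtactgtaatagc
Ckm, chr7:20002222-20004829, plus strand: cgatgcccgtggcatctggcacaacgacaa
Tnnc2, chr2:164602661-164602720, minus strand: acgggaaaggctgctcctttgggctctgtg
Casq1, chr1:174140602-174142105, minus strand: caaataggagttgtcaatgttacagacgcg
The Ckm and Casq1 probes span 2608 and 1504 bases of the genome, more than their own length. Over the full probes, the longest run shared with a probe of another gene was 14 bases.

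The myosin heavy chains are the motors of the thick filament, and Myh6 encodes the alpha chain typical of the atrium and of the adult mouse heart. Its signal was 11.69 and 11.66 in control RNA (arrays 1 and 2) and 9.29 and 9.73 in mutant RNA. Both mutant samples lay far below both controls. The ratios were -2.41 and -1.93, a mean of -2.17 ± 0.34 (SD, n = 2; 95% interval -2.47 to -1.86), which is 4.50-fold lower (limma, adjusted p = 0.000827). By p-value Myh6 stood at rank 3 of all genes tested. The other Myh6 probe, which lies upstream on the minus strand, was not well above background in any channel, with signals of 6.63 and 6.69 in controls and 6.61 and 6.61 in mutants. It carried no measurable level, so the fall rests on the brighter probe. In the authors' deposited table the tested probe stood at -2.54 and -2.06 on the log2 scale, and the dim one at -0.25 and -0.30.

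Myh7, the slow beta heavy chain encoded next to Myh6, had signals of 8.39 and 8.44 in controls and 8.21 and 8.07 in mutants. The mutant samples lay below the controls, but the mean of -0.27 ± 0.13 (SD, n = 2) did not pass (adjusted p = 0.189). Myh8, the perinatal skeletal heavy chain, was dim, at 7.62 and 7.59 in controls and 7.03 and 7.29 in mutants. Its mean of -0.44 ± 0.21 (SD, n = 2) did not pass (adjusted p = 0.0736). The mean was -0.87 with the software's processed signals, -0.83 in the authors' deposited table and -0.25 as the mean over its tested probes, and it passed under 2 of 10 alternatives. Of its 4 probes only the brightest showed this, as the others had ratios between -0.15 and 0.28. The adult and embryonic skeletal heavy chains Myh1, Myh2, Myh3 and Myh4 were not tested, because no probe was well above background on both arrays in either genotype. Myh2 reached that level in 1 control channel, and Myh1, Myh3 and Myh4 in none.

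**Figure D2:**
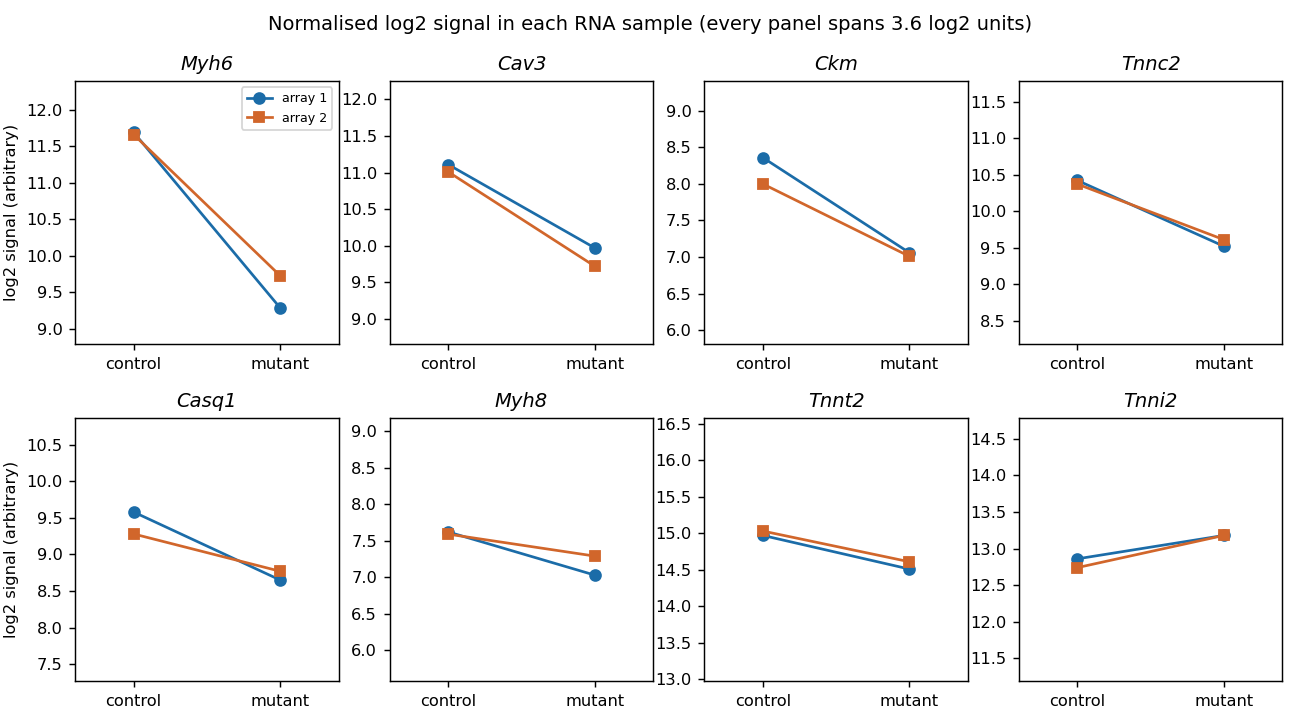
Normalised log2 signal (vertical axis, arbitrary units, 3.6 units in each panel) in control and mutant RNA for 8 members, with circles for array 1 and squares for array 2 and a line joining the samples of an array. Myh6, Cav3, Ckm, Tnnc2 and Casq1 fall on both arrays, Myh8 and Tnnt2 are lower in mutants on both with smaller means, and Tnni2 is higher.

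Actins form the thin filament, with Actc1 the cardiac and Acta1 the skeletal form. Neither passed, although 1 of them, Actc1, had an unadjusted p below 0.05. Actc1 gave 13.84 and 13.60 in controls and 13.52 and 13.21 in mutants, with a mean of -0.36 ± 0.04 (SD, n = 2; adjusted p = 0.101). Acta1 gave 13.29 and 13.01 in controls and 12.99 and 12.84 in mutants, with a mean of -0.23 ± 0.09 (SD, n = 2; adjusted p = 0.247). Both genes were well above background in every channel, and in each the mutant samples lay below the controls by less than 0.40.

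The troponin complex makes the thin filament respond to calcium, with a calcium-binding C, an inhibitory I and a tropomyosin-binding T subunit. All 8 troponin members were tested and 1 fell, the fast skeletal Tnnc2. Its signal was 10.42 and 10.37 in controls and 9.52 and 9.61 in mutants, with no overlap. The mean was -0.83 ± 0.10 (SD, n = 2; 95% interval -1.08 to -0.59), 1.78-fold lower (adjusted p = 0.0147). Its cardiac and slow muscle counterpart Tnnc1 had ratios of 0.11 and -0.10 (adjusted p = 0.972; 95% interval -0.24 to 0.26). Tnnc1 was dim, at 7.47 and 7.62 in controls and 7.59 and 7.53 in mutants. The offset added to the background correction pulls ratios of dim probes towards 0. The difference between Tnnc2 and Tnnc1 was not tested.

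Among the T subunits, the cardiac Tnnt2 gave 14.97 and 15.03 in controls and 14.51 and 14.61 in mutants. It narrowly missed the threshold, with a mean of -0.44 ± 0.03 (SD, n = 2; adjusted p = 0.0581). The slow skeletal Tnnt1 had ratios of -0.43 and -0.11 (adjusted p = 0.223), and its second probe gave -0.46 and -0.05. The fast skeletal Tnnt3 had ratios of -0.12 and -0.32 (adjusted p = 0.272) and an overlapping probe gave -0.32 and -0.26. In all of the T subunits the mutant samples lay below the controls.

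None of the I subunits passed. The fast skeletal Tnni2 gave 12.86 and 12.74 in controls and 13.18 and 13.18 in mutants, higher in both mutants, with a mean of 0.38 ± 0.08 (SD, n = 2; 95% interval 0.13 to 0.62) (adjusted p = 0.0887). Tnni1, the slow skeletal form, had ratios of -0.17 and -0.12 (adjusted p = 0.459) and was well above background in mutant RNA on 1 array only. Tnni3, the cardiac form, had 0.00 and -0.05 (adjusted p = 0.919). The fast skeletal subunits therefore did not share a direction, since Tnnc2 was lower and Tnni2 higher on both arrays.

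Myosin light chains stabilise the neck of the heavy chain, and none of the 5 tested passed, nor did any have an unadjusted p below 0.05. The largest mean was that of the cardiac and slow muscle Myl3, at -0.22 ± 0.10 (SD, n = 2; adjusted p = 0.263). The skeletal Myl1 had ratios of -0.34 and -0.07 (adjusted p = 0.332), and its second probe was too dim to test. Mylpf, the fast skeletal regulatory chain, had -0.43 and 0.05 (adjusted p = 0.440), opposite in sign between the arrays. The ventricular Myl2 had -0.03 and 0.00 (adjusted p = 0.936), and the atrial and embryonic Myl4 had -0.02 and 0.29 (adjusted p = 0.542). The atrial Myl7 was not well above background in any channel.

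Myosin binding protein C lies along the thick filament. The cardiac Mybpc3 had ratios of -0.21 and -0.25 (adjusted p = 0.235) and the slow skeletal Mybpc1 of 0.08 and -0.12 (adjusted p = 0.927). The fast skeletal Mybpc2 was not well above background in any channel.

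None of the 7 tested members of the M band, the Z disc and the scaffold passed (1 had an unadjusted p below 0.05), and their median ratio was -0.06. Neb, the nebulin that runs along the thin filament, had 0.28 and 0.30 (mean 0.29 ± 0.01, SD, n = 2; adjusted p = 0.155), but a second tested Neb probe had -0.10 and 0.16. Ttn, the titin spring, had 0.34 and 0.05 (adjusted p = 0.361) from 1 of 4 probes, the other 3 being too dim. The M band protein Myom1 had -0.30 and -0.08 (adjusted p = 0.342), and its relative Myom2 had -0.16 and 0.06 (adjusted p = 0.814). The muscle intermediate filament Des gave 9.24 and 9.06 in controls and 8.66 and 9.01 in mutants. Its ratios of -0.58 and -0.05 had the largest SD of any tested member, 0.37 (adjusted p = 0.229), so the lower reading rests on array 1. The Z disc proteins Actn3 and Ldb3 had -0.28 and -0.03 (adjusted p = 0.458) and -0.07 and -0.05 (adjusted p = 0.779). Actn2, the cardiac and skeletal alpha-actinin, was not tested, with 1 of its probes well above background in 1 control channel.

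**Figure D3:**
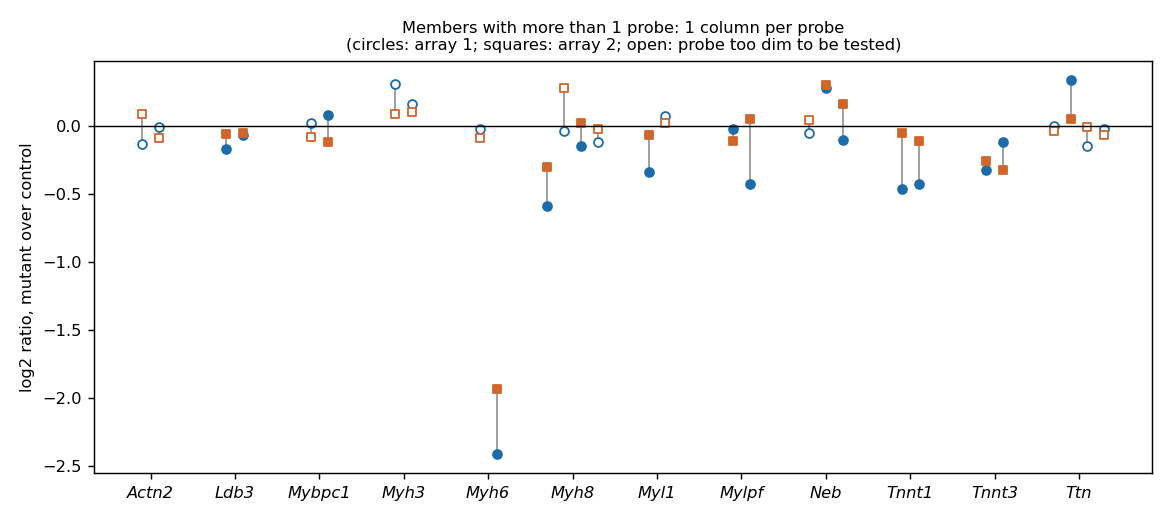
Log2 ratio of mutant over control (vertical axis) for every probe of the 12 members with more than 1 probe, with circles for array 1, squares for array 2, lines joining the pair and open marks for probes too dim to test. The dim Myh6 probe lies near 0 while the tested one lies below -1.9, and the Tnnt1 and Tnnt3 probes lie close to each other.

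Ckm buffers energy at the sarcomere by passing phosphate between creatine and ATP. It gave 8.36 and 8.0 in controls and 7.06 and 7.01 in mutants, so both mutants lay below both controls. The mean was -1.14 ± 0.22 (SD, n = 2; 95% interval -1.41 to -0.87), 2.21-fold lower (adjusted p = 0.00986). In the authors' deposited table the same probe stood at -2.27 and -1.74 on the log2 scale, a larger difference, and the offset added to the background correction here pulls dim probes such as this one towards 0.

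Cav3 forms the membrane pits of heart and skeletal muscle, and is also known from smooth muscle. It gave 11.11 and 11.01 in controls and 9.97 and 9.72 in mutants. The mean of -1.21 ± 0.10 (SD, n = 2; 95% interval -1.46 to -0.97) is 2.32-fold lower (adjusted p = 0.00745). Casq1 stores calcium in the sarcoplasmic reticulum of fast skeletal muscle, and gave 9.58 and 9.28 in controls and 8.65 and 8.77 in mutants. Its mean of -0.72 ± 0.29 (SD, n = 2; 95% interval -1.01 to -0.43) is 1.65-fold lower (adjusted p = 0.026). Of the members that fell, Casq1 had the highest adjusted p.

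The other tested calcium members did not pass. Casq2 was dim, at 7.19 and 7.18 in controls and 7.13 and 7.11 in mutants. Ryr2 was dim too, at 6.70 and 6.77 in controls and 6.65 and 6.87 in mutants. The offset pulls the ratios of both towards 0, so values near 0 do not show that expression was unchanged. The cardiac calsequestrin Casq2 had ratios of -0.07 and -0.08 (adjusted p = 0.731; 95% interval -0.31 to 0.17). The fast skeletal calcium pump Atp2a1 had -0.06 and 0.13 (adjusted p = 0.893), and the cardiac calcium release channel Ryr2 had -0.04 and 0.10 (adjusted p = 0.898), with Ryr2 well above background in mutants on 1 array only. The skeletal release channel Ryr1 was not tested and was well above background in 1 control channel. Thus only 1 of the calsequestrins passed, the other being dim, and whether they differ from each other was not tested.

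Myod1, a transcription factor that commits cells to skeletal muscle, gave 7.26 and 7.01 in controls and 7.08 and 6.87 in mutants, with overlap (mean -0.16 ± 0.02, SD, n = 2; adjusted p = 0.407). Myf5, which acts beside Myod1, was not well above background in any channel. Myog, which drives terminal differentiation, was so in 1 control and 1 mutant channel and was not tested. Myod1 was thus measurable in both genotypes, and Myf5 and Myog lay at or near background.

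By tissue, 1 of 12 tested cardiac members fell (median ratio -0.15, with -0.11 and -0.17 on the arrays), 2 of 15 tested skeletal members (median -0.19, with -0.28 and -0.12) and 2 of 7 tested members of both tissues (median -0.19, with -0.30 and -0.05). The difference between the tissues was not tested. Of the 10 members not tested, 8 were skeletal. Both mutant signals lay below both control signals in 7 of the 12 cardiac, 8 of the 15 skeletal and 4 of the 7 shared members. Over all genes tested that share was 23.5%. The reverse order held for 3 members, beside 21.5% of all genes tested.

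Other genes of striated muscle were read from lists of companions of the sarcomere. Of 30 other sarcomere, Z disc and scaffold genes 16 were tested and 2 fell, the Z disc protein Synpo2l (-0.49 ± 0.04, SD, n = 2; adjusted p = 0.0457) and the LIM protein Fhl1 (-0.48 ± 0.10, SD, n = 2; adjusted p = 0.0499). Their median was -0.14. None of the 15 tested of 24 excitation, calcium and neuromuscular junction genes passed. Of these, 2 had an unadjusted p below 0.05, beside 4955 of all 22070 genes tested, and the median of the list was -0.03. The smallest adjusted p there was 0.156, for the fetal acetylcholine receptor subunit Chrng (-0.29, not well above background in mutants on either array), followed by Cacna1s (-0.28), Stac3 (0.22) and Scn4a (-0.13), all parts of the excitation of skeletal muscle. Of 10 genes of muscle energy metabolism and oxygen storage 8 were tested and 2 fell, the cytochrome oxidase subunits Cox8b (-1.16 ± 0.25, SD, n = 2; adjusted p = 0.00986) and Cox7a1 (-0.73 ± 0.15, SD, n = 2; adjusted p = 0.0196). The median of this list was -0.31. Both subunits are also known from brown fat. The oxygen store Mb was not tested.

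Of 15 skeletal muscle progenitor and myogenic genes 12 were tested and none passed. Of these, 2 had an unadjusted p below 0.05, beside 4955 of all 22070 genes tested, and the median of the list was -0.06. The transcriptional cofactors Vgll3 (0.44, adjusted p = 0.0661) and Vgll2 (0.28) and the MADS box factors Mef2c (-0.14) and Mef2a (-0.13) had the smallest p-values of this list. Of 18 cardiac regulators and hormones 12 were tested and 1 fell, the gap junction protein Gja5 of atrium and arteries (-1.08 ± 0.03, SD, n = 2; adjusted p = 0.00745). Their median was -0.24, and 6 of the 12 had an unadjusted p below 0.05, all of them lower in mutants. Of all 22070 genes tested, 2511 were lower at that cut and 2444 higher. Both mutant signals lay below both control signals in 8 of the 12, beside 23.5% of all genes tested. The reverse order held for 1, beside 21.5%. Nkx2-5 and Gata4, regulators that define heart muscle, were not tested because no probe was bright enough.

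The same samples were read for other cells of the dissected ureter. None of 13 smooth muscle genes passed, and their median was 0.00. Of these, 4 had an unadjusted p below 0.05, beside 4955 of all 22070 genes tested. The summed log2 signal of the list was 19.69 and 19.72 in controls and 19.67 and 19.70 in mutants. Here and below, a summed log2 signal is the log2 of the summed linear signals of the tested genes of a list. In every list it is set by the brightest probes and says little of the others. Pcp4 (-0.91, adjusted p = 0.0528), Myocd (0.45, adjusted p = 0.0533), Itga8 (-0.41) and Synpo2 (-0.35) had the smallest p-values of that list. White and shared adipocyte genes fell in 7 of 8 tested (Thrsp, Retn, Fabp4, Adipoq, Cfd, Cidec and Plin1), with a median of -1.95 and medians of -1.15 and -2.88 on the arrays. Their summed log2 signal was 16.53 and 16.25 in controls and 15.74 and 14.72 in mutants, and Lep was too dim to test. The remaining tested gene of this list, Pparg, lay above 0 on both arrays, at 0.15 and 0.25 (limma, adjusted p = 0.308). Among 10 tested brown adipocyte genes Cox8b, Cox7a1 and Cidea (-0.47) fell and Prdm16 rose (0.52 ± 0.12, SD, n = 2; adjusted p = 0.0428), with summed log2 signals of 13.94 and 13.77 in controls and 13.34 and 13.15 in mutants. The defining brown fat gene Ucp1 had a mean of 0.07 (adjusted p = 0.741).

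Endothelial genes fell in 7 of 10 tested (Esam, Cdh5, Emcn, Sox17, Cldn5, Tek and Tie1, median -0.55), with a summed log2 signal of 13.16 and 13.06 in controls and 12.72 and 12.85 in mutants. Neuronal and Schwann cell genes fell in 5 of 10 (Dbh, Stmn2, Prph and Th among them, median -0.50), although their summed log2 signal was at most 15.85 in controls and at least 15.86 in mutants. Macrophage genes fell in 4 of 8 (Mrc1, Fcer1g, Cd14 and C1qa, median -0.46), with 16.71 and 16.31 in controls and 16.35 and 15.81 in mutants. Urothelial genes rose in 3 of 8 (Upk1a, Cdh1 and Upk3b, median 0.45), with 17.46 and 17.44 in controls and 17.93 and 18.18 in mutants. Ratios lay above 0 on both arrays for 7 of the 8 and below 0 on both for Krt5 (mean -0.46; limma, adjusted p = 0.0833). The summed log2 signal of the tested members was 16.76 and 16.68 in controls and 16.40 and 16.44 in mutants. It is set mostly by bright members that did not pass, such as Tnnt2 and Tnnt1, and says little of the 5 that fell. Part of the markers of fat, vessel, macrophage and nerve were thus lower in mutants, as the 5 members were. Their part in the result was not tested. Sizes differed by array. Medians on arrays 1 and 2 were -1.15 and -2.88 for white and shared adipocyte genes and -0.31 and -0.61 for macrophage genes. They were -0.56 and -0.49 for endothelial genes and -0.53 and -0.48 for neuronal and Schwann cell genes. Of the 5 members, only Cav3 fell more on array 2.

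**Figure D4:**
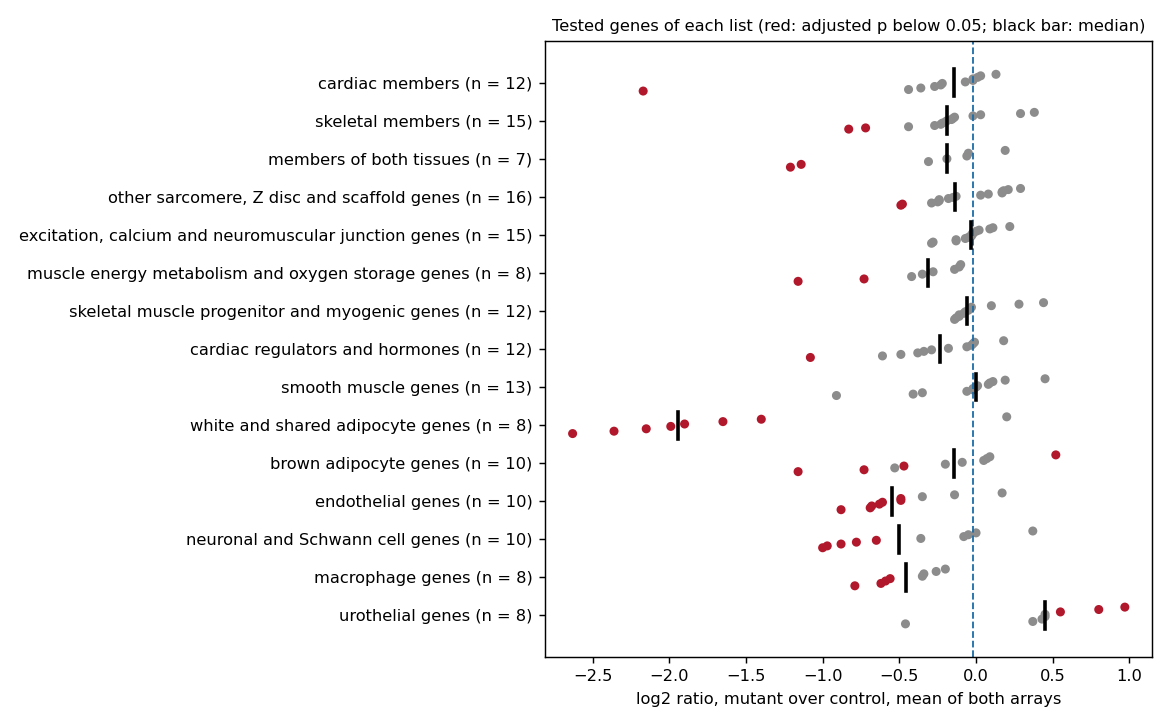
Mean log2 ratio of mutant over control (horizontal axis) for every tested gene of the members and of 12 other lists, with red points for genes that passed, black bars for list medians and a dashed line at the median of all genes tested. The cardiac and skeletal members centre near -0.15 and -0.19, smooth muscle genes at 0.00, and white and shared adipocyte genes at -1.95.

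Promoter windows were searched for motifs of muscle regulators, to describe the members that fell beside those that did not pass. E-boxes (CANNTG) are bound by basic helix-loop-helix factors such as Myod1, the MEF2 motif by MEF2 factors, and the CArG box by serum response factor. Windows are the 250 bases before the annotated start in RefSeq (GRCm38.p6), 5' to 3' on the gene's strand, with E-boxes and CArG boxes in capitals. The windows of the members that fell are printed first, to show what they hold.
Myh6, chr14:54966608-54966857, minus strand: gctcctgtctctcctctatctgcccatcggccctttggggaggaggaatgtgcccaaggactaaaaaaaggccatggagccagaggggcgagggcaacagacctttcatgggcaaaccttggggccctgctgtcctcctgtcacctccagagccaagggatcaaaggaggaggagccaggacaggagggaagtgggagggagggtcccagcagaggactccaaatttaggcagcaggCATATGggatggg
Cav3, chr6:112459255-112459504, plus strand: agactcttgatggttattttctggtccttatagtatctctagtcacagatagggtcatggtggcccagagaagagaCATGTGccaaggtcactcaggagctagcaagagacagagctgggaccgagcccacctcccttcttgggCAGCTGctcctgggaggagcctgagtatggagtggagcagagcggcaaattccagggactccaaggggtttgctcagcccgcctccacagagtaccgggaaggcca
Ckm, chr7:19410844-19411093, plus strand: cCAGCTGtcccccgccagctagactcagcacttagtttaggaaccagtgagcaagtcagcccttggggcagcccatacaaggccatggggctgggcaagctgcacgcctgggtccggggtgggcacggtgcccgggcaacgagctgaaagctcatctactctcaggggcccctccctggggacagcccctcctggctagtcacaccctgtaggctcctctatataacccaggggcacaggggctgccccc
Tnnc2, chr2:164779735-164779984, minus strand: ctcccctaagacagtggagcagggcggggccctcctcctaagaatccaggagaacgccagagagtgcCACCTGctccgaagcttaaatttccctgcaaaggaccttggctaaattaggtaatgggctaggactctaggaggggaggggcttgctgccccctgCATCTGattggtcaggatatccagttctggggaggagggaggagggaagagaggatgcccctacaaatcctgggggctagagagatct
Casq1, chr1:172219896-172220145, minus strand: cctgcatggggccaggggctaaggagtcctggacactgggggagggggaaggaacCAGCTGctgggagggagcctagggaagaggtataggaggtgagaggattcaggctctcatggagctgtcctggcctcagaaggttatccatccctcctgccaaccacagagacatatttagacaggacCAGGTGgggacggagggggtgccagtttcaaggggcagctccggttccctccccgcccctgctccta
Each of the 5 holds an E-box and none holds a MEF2 motif or CArG box. E-boxes begin 13 bases before the start in Myh6, 174 and 106 in Cav3, 249 in Ckm, 183 and 88 in Tnnc2, and 195 and 67 in Casq1.

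The actin windows are shown as examples of a CArG box in members that did not pass, although most windows of such members lack one.
Acta1, chr8:123894776-123895025, minus strand: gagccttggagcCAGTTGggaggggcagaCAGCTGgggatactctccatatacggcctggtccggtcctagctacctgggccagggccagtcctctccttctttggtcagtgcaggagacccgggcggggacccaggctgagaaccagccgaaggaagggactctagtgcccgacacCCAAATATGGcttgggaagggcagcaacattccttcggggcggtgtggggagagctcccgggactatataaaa
Actc1, chr2:114052876-114053125, minus strand: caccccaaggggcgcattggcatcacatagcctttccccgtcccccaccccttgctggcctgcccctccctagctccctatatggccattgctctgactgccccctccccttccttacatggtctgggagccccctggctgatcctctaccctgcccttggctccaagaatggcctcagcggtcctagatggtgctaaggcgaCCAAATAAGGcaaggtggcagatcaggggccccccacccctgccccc
The CArG box begins 73 bases before the start in Acta1 and 47 in Actc1, and Acta1 also has E-boxes at 238 and 221.

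Over both strands, an E-box was in 35 of 43 windows of the 38 members with a RefSeq window (81.4%), beside 66.2% of 32851 windows in all. Among tested members that did not pass it was in 24 of 28 windows (85.7%), so its presence did not separate them from the members that fell. The MEF2 motif was in 6 of 43 (14.0%, beside 2.92% of all) and the CArG box in 8 of 43 (18.6%, beside 1.47%). Among tested members that did not pass, the MEF2 motif was in 4 of 28 windows (14.3%) and the CArG box in 6 of 28 (21.4%). Most of those windows thus lack these motifs, as do the 5 windows of the members that fell. A stretch could count for more than 1 motif. Windows of alternative starts of a gene were counted separately, so a match shared by overlapping windows counts for each of them. The overlapping Ldb3 windows hold the same CArG box, and the overlapping windows of Myh7 and of Tnni1 share E-boxes. A match is a description of letters only, and a missing match says only that these letters are not in this window.

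How far the calls hold was read from 10 other ways of processing. Myh6 passed in 9 of 10, Ckm in 8, Cav3 and Tnnc2 in 7 and Casq1 in 6. With median centring in place of loess no gene of the array passed at all, although 4974 genes were lower and 610 higher at an unadjusted p below 0.05, and every one of the 5 had an adjusted p of 0.121, with ratios from -0.86 (Casq1) to -2.36 (Myh6). The ratios of the 5 were below 0 in all 10.

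**Figure D5:**
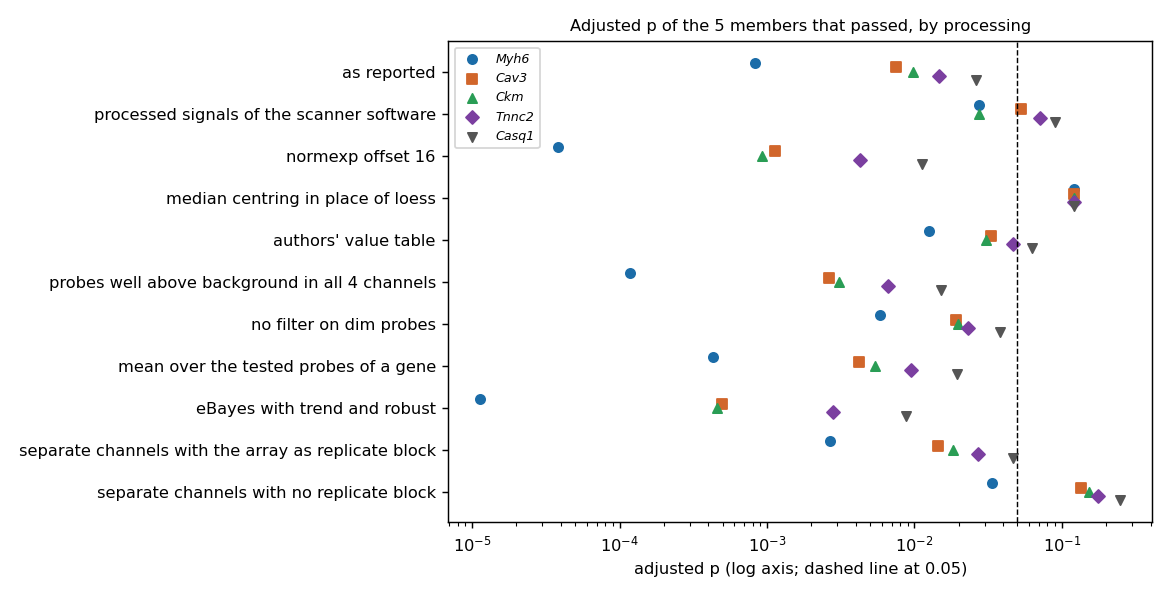
Adjusted p (horizontal log axis, dashed line at 0.05) of the 5 members that fell, as reported and under 10 other ways of processing, with 1 symbol per gene. All lie right of the line with median centring, and only Myh6 stays left of it with separate channels and no block.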

How the data were processed

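Two-colour Agilent arrays were read for 2 mutant and 2 control RNA samples of cultured ureters. Spot means and local background medians are deposited as intensity values in the scanner's own files. The submitters' processing notes name Agilent Feature Extraction 10.7.3.1 as the software. Processed intensity values were background-subtracted and dye-normalised, and log10 ratios of red over green were computed from them, per the file headers. For each probe the authors' deposited value table gives a score, which reads as a signed fold change and has a column median of 1 on both arrays. On the log2 scale it correlated across probes with the ratio of processed signals, mutant over control, at r = 0.69 on array 1 and r = 0.84 on array 2, so its direction is mutant over control. How its spots were averaged and whether it was centred are unknown, and a log2 value printed from it is a signed fold on that scale. The file headers give probe positions on mm9. Exons and UTRs were not analysed here.

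Ratios were computed with limma 3.58.1 in R 4.3.3: normexp background correction with an offset of 50, loess within each array with weight 0 for control and filler spots, and without the spots marked as outliers (3.17% and 3.65% of gene spots). The spots of a probe, 4 as a rule, were averaged. A probe was well above background where over 0.5 of its spots were, and was tested if so on both arrays in at least 1 genotype. The brightest tested probe stood for a gene. Ratios were turned to mutant over control and tested two-sided against 0 (lmFit, eBayes), and p-values were adjusted after Benjamini and Hochberg (836 of 22070 genes passed, 3.79%). The fit has 1 residual degree of freedom, so it leans on the spread of all genes. Signals of single channels came from the same loess followed by Aquantile. Both arrays lay on 1 slide and in 1 scan, and their number limits the precision. The script was tested on simulated data.

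Genes were named through a RefSeq table of GRCm38.p6, by accession for 28328 probes, by symbol for 3400, and from the file for 7701. Members are those named in the set; of every other list, each gene that passed, up to 8, is named, and otherwise the 4 with the smallest p. One gene that this rule would name is not reported here. Further genes (Ucp1, Lep, Mb, Nkx2-5 and Gata4) were named as defining markers after their values were seen. Krt5 and Pparg were likewise named after their values were seen, as the urothelial and the adipocyte gene that went the other way. The members and lists (12 lists of other striated muscle genes, smooth muscle, adipocyte, endothelial, nerve, macrophage and urothelial genes) were chosen with earlier results of these data known.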

Additional observations from a re-analysis of the deposited data

How the results depend on the processing

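Alternatives were run 1 at a time, and the cause of each change was not tested. Over all genes, 5 lower and 5 higher passed with the software's processed signals, 91 and 79 with the authors' table, 116 and 98 with separate channels and the array as replicate block, 1 and 2 with no replicate block, and 947 and 960 at an adjusted p below 0.1, while 665 and 642 passed with a trended, robust variance. Of the members, 2 passed as lower with processed signals and 1 (Myh6) with no replicate block. At 0.1, 7 members passed as lower and 1 (Tnni2) as higher. Median centring left 0 lower and 0 higher genes and 0 lower members, moved the median of all genes tested from -0.02 to -0.14 and that of the members to -0.26, so that the members lay closer to all genes. That member median was -0.24 with processed signals, -0.08 with no filter on dim probes, and -0.18 to -0.10 when either array was left out, which gives no test. Myh8 passed with an offset of 16 (-0.57) and with a trended, robust variance (-0.44), and Tnnt2 with probes bright in all 4 channels and with the mean over probes (-0.44 in both). Adjusted p over the 10 alternatives ranged from 1.14e-05 to 0.121 for Myh6 and from 0.00874 to 0.25 for Casq1. Near 0, signs turned for Tnni3 (0.00 with processed signals, 0.10 in the authors' table), Myl2 (0.02 with processed signals, 0.01 with median centring and in the authors' table), and, with median centring, Tnnc1 (-0.01), Myl4 (-0.06) and Atp2a1 (-0.10). Array numbers pair mutant and control on 1 array, so the ratio already holds that pairing.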
